A study of Homo sapiens with 8 samples.

Results

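Peptide hormones and many growth factors are made as longer precursors. In the regulated secretory pathway, convertases (PCSK1 and PCSK2) cut a precursor after pairs of basic residues, a carboxypeptidase (CPE) trims those basic residues from the new ends, and PAM turns an exposed C-terminal glycine into an amide. Granins such as CHGA, CHGB and SCG2 are carried in the same granules, and SCG5 is the chaperone of PCSK2. The genes examined here belong to this machinery, namely CPE, CPD, CPM, PAM, PCSK1, PCSK2, SCG5, SCG2, CHGA and CHGB. They were taken by symbol as 10 of the 63677 genes in the deposited table, and all 10 were found. The set was chosen by the difference in normalized reads between the groups compared here, with CPE as its lead, so the values of these 10 genes are a description with no test.

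The groups were 4 libraries of LY2 cells with stable short hairpin RNA against NCOA1 (shSRC1) and 4 libraries of LY2 cells with a stable non-targeting hairpin (shNT). LY2 cells derive from the breast cancer line MCF-7 and are resistant to endocrine treatment, and NCOA1 encodes SRC-1, a coactivator of steroid receptors. Both groups were grown under puromycin (500 ng/mL) in medium without phenol red, with 10% charcoal-stripped serum and 10 nM 4-hydroxytamoxifen, the active metabolite of tamoxifen. Both were then deprived of steroids for 72 h and given 100 nM 4-hydroxytamoxifen for 8 h, so no library is free of the drug. The labels do not say how many hairpins or clones stand behind each group, nor that replicates came from separate cultures. The spread behind each p-value is therefore that between libraries and can be technical.

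The deposited values are read counts divided by a size factor per library, called normalized reads here. The shSRC1 libraries held 33771775 to 66248960 reads and the shNT libraries 58459196 to 67022036, with the fewest in shSRC1 replicate 2. NCOA1 averaged 2036 ± 151 normalized reads in shSRC1 and 4396 ± 137 in shNT (SD, n = 4 each), and fell by 1.11 on the log2 scale (limma adjusted p = 2.25e-07). Libraries also differed in composition. Across 18787 tested genes, Spearman's rho between a library's deviation from the gene mean and transcript GC content ran from -0.22 to 0.48 in shSRC1 and from -0.22 to 0.18 in shNT, with genes as the points. CPE, PCSK1N, MBTPS1, TPST1 and ADM2 were each lower in shNT replicate 3 than in the other shNT libraries. All 8 luminal breast markers listed for the cell line (ESR1, GATA3, FOXA1, KRT8, KRT18, KRT19, EPCAM and XBP1) were measured, and their summed level was 535060 to 595375 normalized reads in shSRC1 and 330805 to 422986 in shNT. That sum is carried by KRT8, KRT18, KRT19 and XBP1, which rose, with log2 fold changes of 0.47 to 0.68 (limma adjusted p from 0.000609 to 0.00733). These 4 are 50% of the 8 markers, where 12% of all tested genes rose. ESR1, FOXA1 and EPCAM had log2 fold changes of -0.13, -0.07 and -0.16 and GATA3 of 0.19, and none of these passed. Of 13 neuroendocrine markers, 10 were measured, and SLC18A1 and SYT4 had no read. The sum over all 13 was 5108 to 5493 in shSRC1 and 4968 to 5342 in shNT. ENO2 and UCHL1 make up most of that sum. Of the 10, DDC rose by 0.63 on the log2 scale (limma adjusted p = 0.0489) and NCAM1 fell by 0.62 (adjusted p = 0.0227). These 2 are 20% of the 10, beside 23.2% of all tested genes that passed. The groups did not overlap in 1 of the 10, PTPRN2, beside 29% of all tested genes. PTPRN2 was higher in shSRC1 by 0.89 on the log2 scale, the largest difference of the 10, and did not pass (limma adjusted p = 0.0537). Of 7 fibroblast markers 5 were measured, and the sum over all 7 was 1452 to 1978 in shSRC1 and 1634 to 2184 in shNT. COL1A1 makes up most of that sum, with means of 1552 in shSRC1 and 1810 in shNT. Of 6 leukocyte markers 2 were measured, and the sum over all 6 was 33.6 to 52.5 in shSRC1 and 29.6 to 52.0 in shNT. The part of these differences in the results below was not tested.

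CPE, the carboxypeptidase of secretory granules, was the member that stood apart. CPE (ENSG00000109472, chromosome 4) had 4128, 4355, 4438 and 4708 normalized reads in shSRC1 replicates 1 to 4, against 1186, 1247, 996 and 1251 in shNT replicates 1 to 4. Every shSRC1 library was above every shNT library, and the lowest of all was shNT replicate 3. The means were 4407 ± 239 in shSRC1 and 1170 ± 119 in shNT (SD, n = 4 each), a ratio of 3.77 and a log2 fold change of 1.92 (SE 0.09) on the log2(normalized reads + 1) scale. The difference rests on 16858 reads in shSRC1 and 5148 in shNT. Over 20 alternative settings, which include every library left out in turn, the log2 fold change of CPE ran from 1.84 to 1.95. The 1.84 came from leaving out shNT replicate 3, and correcting each library for transcript length and GC content gave 1.88. In bulk RNA, more cells with CPE RNA and more CPE RNA per cell cannot be told apart.

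CPD and CPM belong to the same carboxypeptidase family and have the same specificity for basic ends. CPD works in the trans-Golgi network and CPM is anchored to the outer face of the plasma membrane. CPD (chromosome 17) had 1949, 2085, 2243 and 2360 normalized reads in shSRC1 and 2141, 2271, 2337 and 2362 in shNT. The ranges of the groups overlapped, and the log2 fold change was -0.08 (SE 0.08). With libraries corrected for transcript length and GC content it was 0.10, so its sign depended on that correction. CPM (chromosome 12) had 62.7, 78.7, 84.5 and 75.1 normalized reads in shSRC1 and 40.8, 64.0, 46.4 and 56.5 in shNT. Here 3 of the 4 shSRC1 libraries were above all shNT libraries, and shSRC1 replicate 1 lay within the shNT range. The log2 fold change was 0.54 (SE 0.20), with 0.43 to 0.67 over 20 alternative settings. CPM shares 133 exon bases with MDM2 on the opposite strand, and as the strand setting of the counting is unknown here, reads from that stretch cannot be assigned to either gene.

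The 250 bases before the annotated starts of these carboxypeptidase genes are shown because CPE stood apart between the groups while its relatives overlapped. They are from RefSeq (GRCh38.p14), which held an entry for 8 of the 10 genes. Capitals mark, on either strand, the estrogen response element core GGTCA, the AP-1 element TGANTCA and the cAMP response element core TGACG.
CPE, chr4:165378758-165379007, plus strand: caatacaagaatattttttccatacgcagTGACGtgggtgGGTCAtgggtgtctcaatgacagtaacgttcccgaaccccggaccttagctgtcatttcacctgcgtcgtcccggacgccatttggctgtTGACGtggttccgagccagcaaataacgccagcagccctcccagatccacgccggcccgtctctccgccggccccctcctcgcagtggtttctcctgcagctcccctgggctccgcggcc
CPD, chr17:30378677-30378926, plus strand: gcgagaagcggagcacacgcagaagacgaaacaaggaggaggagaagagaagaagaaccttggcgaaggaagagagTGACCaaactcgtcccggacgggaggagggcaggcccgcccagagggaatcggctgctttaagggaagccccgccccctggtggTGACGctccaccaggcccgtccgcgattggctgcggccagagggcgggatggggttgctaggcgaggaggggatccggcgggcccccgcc
CPM, chr12:68933200-68933449, minus strand: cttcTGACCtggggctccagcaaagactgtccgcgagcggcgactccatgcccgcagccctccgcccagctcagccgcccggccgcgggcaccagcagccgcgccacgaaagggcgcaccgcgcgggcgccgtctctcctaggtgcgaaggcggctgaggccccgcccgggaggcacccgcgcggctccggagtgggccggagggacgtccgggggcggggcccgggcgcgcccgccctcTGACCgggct
GGTCA was found once in the CPE window, once in that of CPD and at 2 places in that of CPM, and in 33.1% of all 27305 RefSeq windows of this length. TGACG was found at 2 places in the CPE window, once in that of CPD and nowhere in that of CPM, and in 21.7% of all windows. None of the 3 windows held TGANTCA, which 6.60% of all windows did. The GC-box GGGCGG, not marked, had no match in the CPE window, 3 in that of CPD and 5 in that of CPM, and was present in 42.3% of all windows. The windows of CPD and CPM had a GC content of 66.8% and 78.8%, and that of CPE 60.4%. Among the other members with a window, PCSK1, PCSK2, SCG5 and CHGA held TGACG and PAM did not. PCSK2 also lacked GGGCGG, while PAM, PCSK1, SCG5 and CHGA had it. The GC content of these windows was 48% in PCSK1, 56.4% in PCSK2 and SCG5, 68.8% in CHGA and 79.6% in PAM. A match of letters is not a binding site.

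PAM, the only enzyme that amidates peptides in the human secretory pathway, had nearly the same mean in both groups. PAM (chromosome 5) had 2281, 2288, 2341 and 2423 normalized reads in shSRC1, against 2348, 2494, 2159 and 2320 in shNT. All shSRC1 values lay within the shNT range. The log2 fold change was 0.00 (SE 0.08), and 0.10 with libraries corrected for transcript length and GC content.

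The convertases that act with CPE in neuroendocrine granules were almost undetected. PCSK1 had 3 reads in the 4 shSRC1 libraries together and 1 in the 4 shNT libraries. PCSK2 had no read in the shSRC1 libraries and 1 in shNT replicate 2. A library with 0 reads allows up to 3 reads, which is 2.73 to 5.25 normalized reads in shSRC1 and 2.67 to 2.79 in shNT, so no difference was detectable at this depth, and no fold is given. These limits cover counting error only, as PCR copies were not told apart from separate molecules. SCG5, the PCSK2 chaperone, had 6.65, 21.0, 14.5 and 16.5 normalized reads in shSRC1 and 12.1, 16.0, 13.0 and 17.0 in shNT. Its groups overlapped, with the lowest and the highest value both in shSRC1, and its log2 fold change was -0.07 (SE 0.37).

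The granins among the 10 genes were low in both groups. CHGA, the serum marker of neuroendocrine tumours, had 29.4, 21.0, 23.6 and 27.5 normalized reads in shSRC1 and 33.4, 20.4, 17.6 and 18.8 in shNT. The highest value was in shNT replicate 1 and the other 3 shNT libraries were below all shSRC1 libraries. Its log2 fold change was 0.20 (SE 0.29). SCG2, the precursor of secretoneurin, had 4.75, 7.00, 17.3 and 10.1 in shSRC1 and 6.50, 10.7, 15.8 and 4.49 in shNT, overlapping throughout, with a log2 fold change of 0.05 (SE 0.48). CHGB had 12 reads in the shSRC1 libraries together and 10 in the shNT libraries. That is 0 to 5.50 normalized reads per library in shSRC1 and 0.889 to 4.64 in shNT, which overlap.

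**Figure D1:**
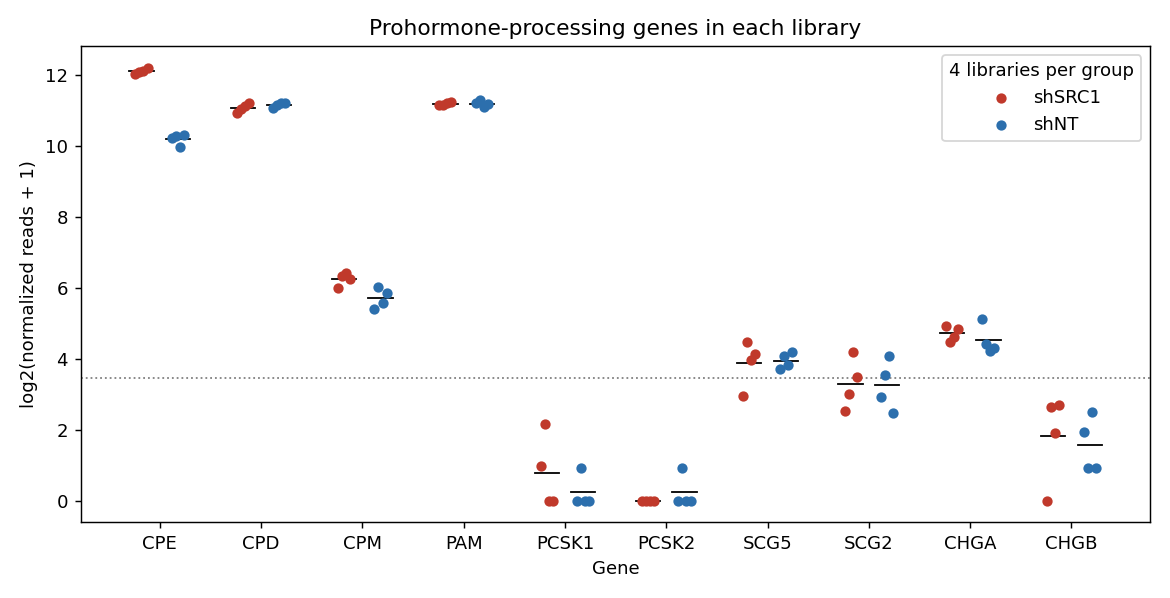
Values of the 10 genes in each library as log2(normalized reads + 1), with shSRC1 in red on the left and shNT in blue on the right of each gene; points are libraries, black bars are means and the dotted line marks 10 normalized reads. CPE is the only one of the 10 whose groups do not overlap, and PCSK1, PCSK2 and CHGB lie below the line in every library.

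Of the 10 genes, 7 reached 10 normalized reads in 4 or more libraries and entered the fit over 19559 genes; PCSK1, PCSK2 and CHGB did not. In that fit 23.2% of all tested genes passed (limma, Benjamini-Hochberg adjusted p under 0.05), 12% higher and 11.2% lower in shSRC1. The 1 of the 7 among them is CPE, which the choice of the set fixed, so no p-value is given for it. Of all calls 51.7% were higher in shSRC1, and 61.5% with libraries corrected for transcript length and GC content. The groups did not overlap in 1 of the 7, again CPE, and in 29% of all tested genes, in 16.9% with shSRC1 higher. The median log2 fold change of the 7 was 0.05, and that of all tested genes was -0.00. Since the difference between these groups was known when the set was chosen, nothing is read from these counts.

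Per kilobase of exon, CPE was the most abundant of the 10 in both groups, with 1490 ± 81 normalized reads per kilobase in shSRC1 and 395 ± 40 in shNT (SD, n = 4 each). PAM followed with 264 ± 7 in shSRC1 and 263 ± 16 in shNT, and CPD with 172 ± 14 in shSRC1 and 182 ± 8 in shNT. The ranges over the 4 libraries did not overlap between CPE and PAM, PAM and CPD, or CPD and the next gene, in either group. CPM, CHGA, SCG5 and SCG2 followed, between 3.59 and 9.99 per kilobase in shSRC1 and between 3.44 and 7.28 in shNT, and each overlapped its neighbours in that order. CHGB, PCSK1 and PCSK2 were below 1 per kilobase in both groups, and PCSK1 and PCSK2 overlapped in both. Among 18787 tested genes with a length, 89.0% had a lower level per kilobase than CPE in shSRC1 and 66.6% in shNT. Within each library the level of CPE was 5.41 to 5.81 times that of PAM in shSRC1 and 1.38 to 1.61 times in shNT. Against the longest transcript instead of all exons, that ratio averaged 4.24 ± 0.13 in shSRC1 and 1.12 ± 0.07 in shNT. On that length the ranges of CPE and PAM over the libraries overlapped in shNT but not in shSRC1. Within each shNT library CPE was still above PAM, by a ratio of 1.04 to 1.21. The order of the genes below CPD also changed, with CPM after CHGA and SCG5 in both groups.

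**Figure D2:**
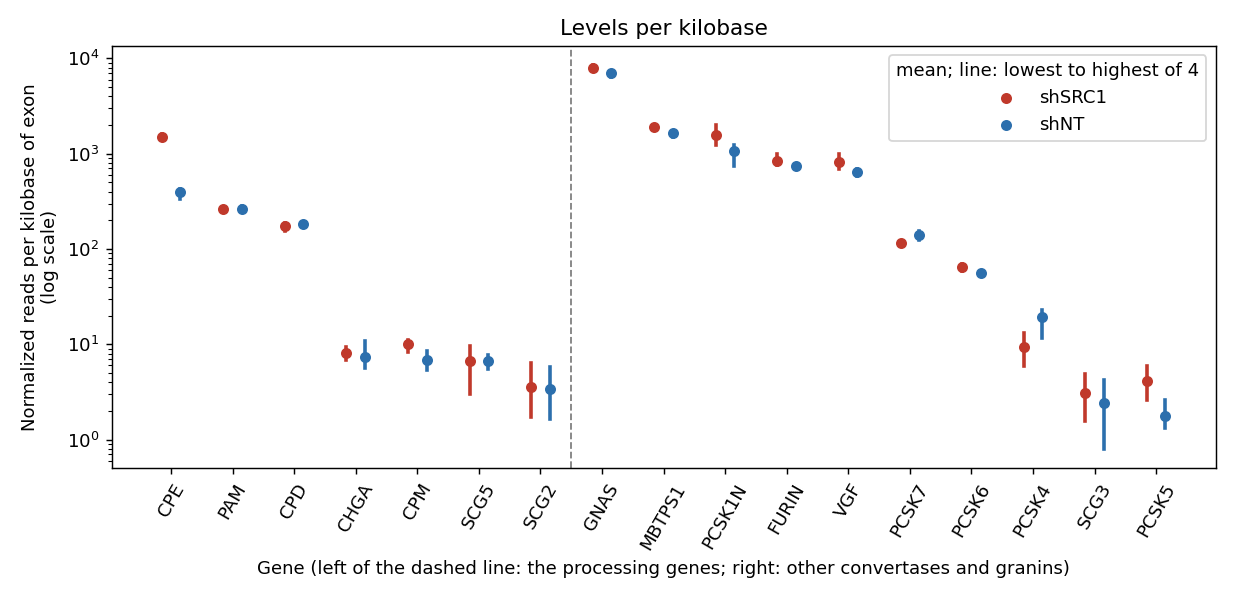
Normalized reads per kilobase of exon on a log scale, with shSRC1 left of shNT for each gene; points are means of 4 libraries and lines run from the lowest to the highest library. Left of the dashed line, CPE leads with 1490 per kilobase in shSRC1 and 395 in shNT, and CHGA, CPM, SCG5 and SCG2 are below 12; right of it, MBTPS1, PCSK1N, FURIN and VGF are above 500.

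A further 6 proprotein convertases were measured and tested, as the set of 10 did not include them. FURIN, the general convertase of the trans-Golgi network, had 836 ± 101 normalized reads per kilobase in shSRC1 and 734 ± 35 in shNT (SD, n = 4 each). Of the 6, 2 rose, 2 fell and 2 did not pass, with a median log2 fold change of 0.19, where 23.2% of all tested genes passed.

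PCSK5, a convertase that matures growth factor precursors, had 57.0, 75.2, 45.4 and 33.0 in shSRC1 and 16.7, 18.7, 22.3 and 33.2 in shNT, and rose by 1.16 on the log2 scale (SE 0.30, limma adjusted p = 0.0123). Its lowest shSRC1 library lay just under its highest shNT library. MBTPS1, the site-1 protease that cuts SREBP and ATF6, averaged 19597 ± 542 in shSRC1 and 16693 ± 1024 in shNT, and rose by 0.23 (SE 0.08, limma adjusted p = 0.0469). Leaving out any 1 library other than shNT replicate 3 ended that call, with limma adjusted p-values up to 0.0952.

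PCSK4, known from germ cells, had 50.3, 22.7, 40.0 and 29.3 in shSRC1 and 86.3, 44.4, 87.3 and 75.4 in shNT, and fell by 1.04 on the log2 scale (SE 0.28, limma adjusted p = 0.0165). Its groups overlapped through shSRC1 replicate 1 and shNT replicate 2, and without shNT replicate 1 the adjusted p was 0.0512. PCSK7, a widely expressed convertase, averaged 2555 ± 131 in shSRC1 and 3126 ± 272 in shNT and fell by 0.29 (SE 0.08, limma adjusted p = 0.0241). Its call was lost without shSRC1 replicate 2, shSRC1 replicate 4 or shNT replicate 1 (limma adjusted p = 0.0647, 0.0671 and 0.0681). PCSK7 shares 446 exon bases with TAGLN and 3940 with another annotated gene, both on the opposite strand. The second of these is not in the deposited table. FURIN and PCSK6 did not pass, at log2 fold changes of 0.18 and 0.21 (limma adjusted p = 0.156 and 0.101).

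Of the other granin genes, VGF and PCSK1N were above CHGA, CHGB and SCG2 in level per kilobase in every library. VGF, a granin that is also cut into peptides, had 810 ± 127 normalized reads per kilobase in shSRC1 and 641 ± 47 in shNT, and PCSK1N, whose product proSAAS inhibits PCSK1, had 1565 ± 314 in shSRC1 and 1070 ± 222 in shNT. Of 4 measured, these 2 rose and none fell, where 12% of all tested genes rose. PCSK1N had 2700, 2126, 2038 and 1666 normalized reads in shSRC1 and 1600, 1560, 1008 and 1664 in shNT, so shSRC1 replicate 4 was only just above shNT replicate 4. Its log2 fold change was 0.55 (SE 0.17, limma adjusted p = 0.0415), and 0.39 (adjusted p = 0.0503) without shNT replicate 3. It was also lost without shSRC1 replicate 1, shSRC1 replicate 3, shNT replicate 1 or shNT replicate 2 (adjusted p = 0.0932, 0.0786, 0.0578 and 0.0583). VGF rose by 0.33 (SE 0.11, limma adjusted p = 0.0369), a call that was lost without shSRC1 replicate 1, 2 or 3 or shNT replicate 2, 3 or 4, where the lowest adjusted p was 0.0522. GNAS did not pass (limma adjusted p = 0.149); its value covers the whole locus, which also encodes the alpha subunit of the stimulatory G protein, and does not separate the granin-like product NESP55. SCG3 did not pass (limma adjusted p = 0.555) and was low, at 3.10 per kilobase in shSRC1 and 2.41 in shNT.

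Of 14 other carboxypeptidases of the M14 family, 4 were measured, AEBP1, CPXM2, CPZ and CPB2, and none passed the test (limma adjusted p from 0.186 to 0.838). By edgeR and DESeq2 none of the 4 passed either, and at an unadjusted p under 0.05 none did. The pancreatic digestive enzymes CPA1 and CPB1 had 0 and 1 reads in shSRC1 and 0 and 0 in shNT.

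Of 7 genes for other peptide end modifications and their cofactors, 1 rose and none fell, where 23.2% of all tested genes passed. TPST1, which sulfates tyrosines of secreted proteins, had 445, 506, 456 and 499 normalized reads in shSRC1 and 328, 314, 220.0 and 317 in shNT. Its groups did not overlap and its log2 fold change was 0.71 (SE 0.13, limma adjusted p = 0.0018), or 0.57 without shNT replicate 3. TPST2, a second such enzyme, had a log2 fold change of 0.28 (limma adjusted p = 0.147). QPCT and QPCTL, which close N-terminal glutamines, and ATP7A, SLC31A1 and CYB561, which bring copper and electrons to PAM, did not pass (limma adjusted p from 0.118 to 0.687). Their log2 fold changes lay between -0.21 and 0.19.

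Most possible substrates were too low to test. Of 47 peptide hormone and growth factor precursors, 31 did not reach the level for testing, and POMC, PENK, PDYN, NPY, SST and GCG had no read in any library. Of the 16 tested, 3 rose, 2 fell and 11 did not pass, with a median log2 fold change of -0.09, so 31.2% passed beside 23.2% of all tested genes. GAL, the galanin precursor, had the highest level per kilobase of the 16, at 1097 ± 102 in shSRC1 and 1144 ± 220 in shNT (SD, n = 4 each), and did not pass the test (log2 fold change -0.04, SE 0.13, limma adjusted p = 0.841).

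CCK, the cholecystokinin precursor, had 109, 99.7, 115 and 115 normalized reads in shSRC1 and 49.2, 56.9, 29.7 and 53.8 in shNT. It rose by 1.23 on the log2 scale (SE 0.21, limma adjusted p = 0.00102), and the groups did not overlap. CCK shares 693 of its 2085 exon bases with an antisense gene that is not in the deposited table. ADM2, a peptide of the calcitonin family, averaged 835 ± 104 in shSRC1 and 584 ± 48 in shNT and rose by 0.51 (SE 0.11, limma adjusted p = 0.00387). PTHLH, the parathyroid hormone-related protein, averaged 28.8 ± 13.8 in shSRC1 and 10.2 ± 2.504 in shNT, without overlap, and rose by 1.31 (SE 0.38, limma adjusted p = 0.0239). All 4 shSRC1 libraries and only 2 shNT libraries reached 10 normalized reads, so PTHLH entered the test through the group in which it was higher. It also shares 353 exon bases with an antisense gene, which had 2 reads in the shSRC1 libraries together and 0 in the shNT libraries. The PTHLH call was lost without shSRC1 replicate 1 or shSRC1 replicate 3 (adjusted p = 0.0870 and 0.0717).

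Among the falls, EDN1, the endothelin precursor, had 449, 436, 516 and 510.4 normalized reads in shSRC1 and 918, 887, 845 and 965 in shNT. It fell by 0.92 on the log2 scale (SE 0.10, limma adjusted p = 1.38e-05), with no overlap. IGF2 had 135, 152, 136 and 148 in shSRC1 and 538, 387, 679.6 and 364 in shNT, and fell by 1.73 (SE 0.17, limma adjusted p = 7.90e-06). The shNT libraries were spread widely, but the lowest was still above every shSRC1 library. IGF2 shares exon bases with the readthrough gene INS-IGF2 and with IGF2-AS. INS-IGF2 had 0 reads in shSRC1 and 6 in shNT, and IGF2-AS 13 and 35, beside 541 and 2154 for IGF2. IGF2 also shares 5144 exon bases with a second annotated IGF2 entry that is not in the deposited table. How reads from shared stretches were counted is unknown here.

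Of 11 neuroendocrine transcription regulators 4 were measured, NKX2-2, PAX6, REST and RCOR1. None passed in the main limma fit, while 1 had an unadjusted p under 0.05 and edgeR and DESeq2 each called 1 as higher. Several limma alternatives also called 1 as higher, among them a minimum of 50 normalized reads and the correction for transcript length and GC content. So did leaving out shNT replicate 3, while leaving out any other 1 library gave no call. RCOR1, a corepressor that works with REST, had a log2 fold change of 0.21 (SE 0.08) with a limma adjusted p of 0.0530. REST, a repressor of neuronal genes, did not pass, at -0.13 on the log2 scale (SE 0.09, limma adjusted p = 0.332). NEUROD1 and ST18 had no read in any library.

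Over the 6 lists together, 12 of 41 tested genes passed, 8 higher and 4 lower, or 29.3% beside 23.2% of all tested genes. Without shSRC1 replicate 1 or shSRC1 replicate 3, 4 rose in place of 8, without shNT replicate 2 or with no filter on low values 5 rose, and without shNT replicate 1, 2 fell in place of 4.

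**Figure D3:**
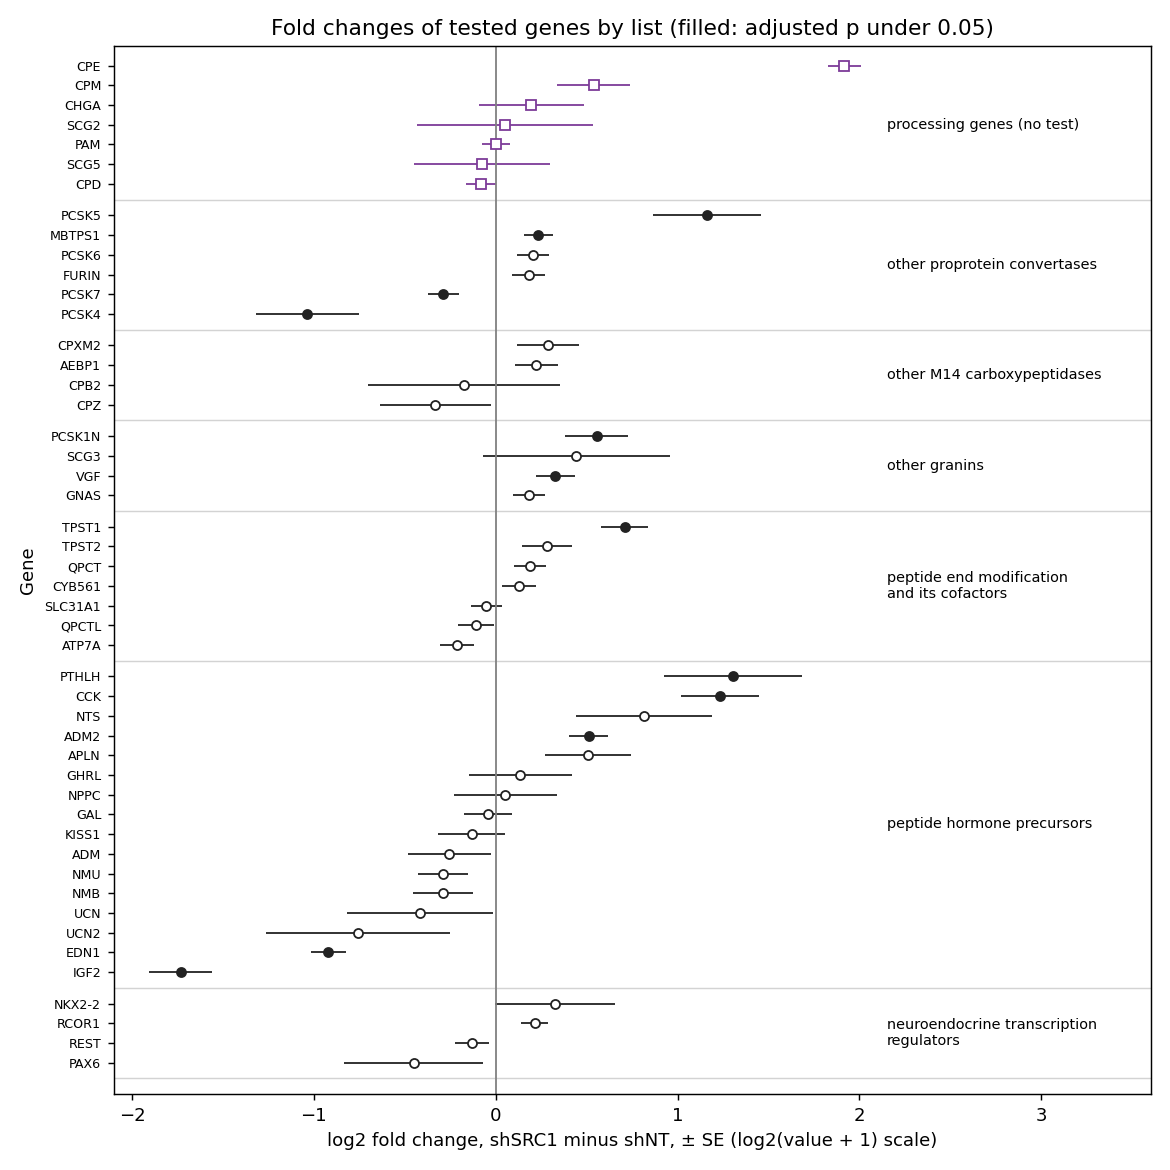
Log2 fold change (shSRC1 minus shNT, log2(normalized reads + 1) scale) with its standard error for the 7 processing genes that entered the fit (squares, no test) and for the 41 tested genes of the 6 lists (circles, filled where the limma adjusted p was under 0.05). CPE stands at 1.92, while the list genes run from -1.73 for IGF2 to 1.31 for PTHLH.

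None of the nearest tested protein-coding genes around CPE on chromosome 4 had a difference of its size. Genes of other types were left out of this comparison. Of its 20 nearest tested protein-coding neighbours, 10 on either side in the order of the GENCODE 29 annotation, 7 had a positive log2 fold change, 2 rose and 4 fell in the limma test, where 23.2% of all tested genes passed, and the median was -0.11. The values ran from -1.09 for DDX60, the next tested protein-coding gene on one side, to 0.72. MSMO1, the next such gene on the other side, had 4482 normalized reads in shSRC1 and 4437 in shNT, or 0.02 on the log2 scale (SE 0.09, limma adjusted p = 0.919). For the other members the same median lay between -0.14 (PAM) and 0.09 (CHGA).

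**Figure D4:**
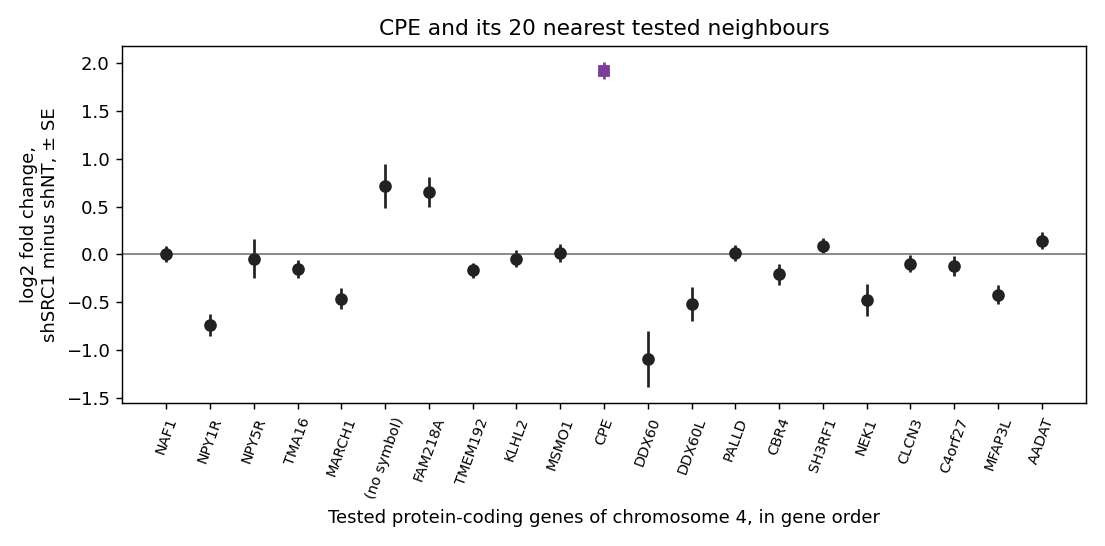
Log2 fold change (shSRC1 minus shNT) with its standard error of CPE (square) and of the 10 nearest tested protein-coding genes on either side, in gene order on chromosome 4. CPE stands at 1.92 and the neighbours between -1.09 and 0.72.

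The 5 genes whose profile over the 8 libraries was nearest to that of CPE were AMPH, PNMA2, NUDT11, MYO16 and ATP8A2. The measure was the root mean square difference of log2(normalized reads + 1) after each gene was centred on its own mean, which was 0.078 for AMPH, 0.081 for PNMA2, 0.087 for NUDT11, 0.136 for MYO16 and 0.155 for ATP8A2. AMPH, which encodes the endocytic protein amphiphysin, averaged 412 ± 28 normalized reads in shSRC1 and 115 ± 12 in shNT (SD, n = 4 each). ATP8A2, a phospholipid flippase, averaged 1475 ± 34 in shSRC1 and 423 ± 40 in shNT. AMPH, PNMA2 and NUDT11 were, like CPE, lowest in shNT replicate 3, and MYO16 and ATP8A2 were not. NUDT11 has a near-identical copy, NUDT10, with which it can share reads. The nearest profiles were searched among all tested genes, so their likeness is a description.

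**Figure D5:**
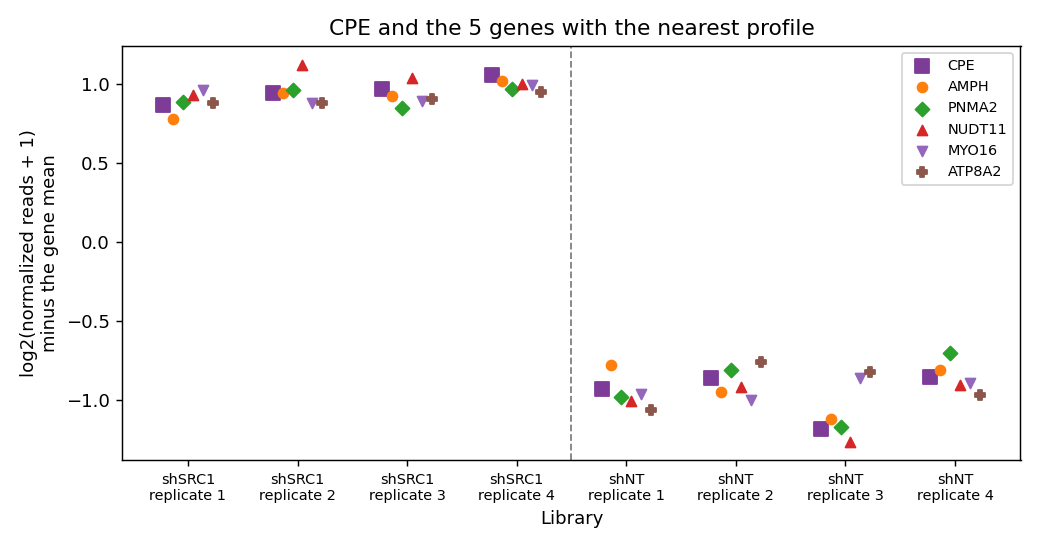
Log2(normalized reads + 1) minus the gene's mean over the 8 libraries for CPE (squares) and the 5 genes with the nearest profile, shSRC1 libraries on the left and shNT libraries on the right of the dashed line. All 6 genes are above their mean in the 4 shSRC1 libraries and below it in the 4 shNT libraries.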

How the data were processed

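Poly(A)-selected RNA of 8 libraries was sequenced. The build was GRCh37 and the tools HTSeq 0.6.1, TopHat2 2.0.12, DESeq and DESeq2, per the submitters' processing notes. Annotation, counting options and strand setting were not given in the sources used here. What the authors deposited is a signal proportional to reads, the read count of each gene divided by a size factor per library; whole reads were recovered for 100% of values (within 0.001 reads), and 0 value columns were left unused.

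Because the deposited signal is not a count, limma 3.58.1 (R 4.3.3; mean-variance trend, robust variances, log2(value + 1), two-sided, Benjamini-Hochberg, threshold 0.05) was the main test, run on the 19559 genes that reached 10 normalized reads in 4 or more libraries. Fold changes on that scale understate low genes. edgeR 4.0.16 and DESeq2 1.42.0 on recovered reads were alternatives and called 4635 and 5304 genes. Code was tested on simulated data. The 10 genes, the lists, tests and rules were chosen with earlier results of these data known. Named genes were the 10, NCOA1, up to 6 called genes per list and the 5 nearest profiles to CPE; some list genes are not reported here and are in no list count; others named were chosen after their values were seen. Lengths, GC content and gene order came from GENCODE 29 (GRCh38), joined by Ensembl identifier.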

Additional observations from a re-analysis of the deposited data

Results flagged for a closer look

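In 6 of 46 groups of 4 libraries examined (23 genes, each group of libraries), 1 library stood apart from the other 3 by Dixon's criterion. For independent, normally distributed values chance meets it in about 1 of 20 groups. That rate cannot be set beside the 6: a single read beside zeros always meets the criterion, and the other 4 come from the same library. PCSK1 and PCSK2 had 0.889 normalized reads each in shNT replicate 2, which is 1 read, and 0 in the other shNT libraries. The other 4 were low values in shNT replicate 3. There MBTPS1 had 15159 normalized reads, with the next lowest shNT library at 17162, and PCSK1N had 1008, with the next at 1560.3. TPST1 had 220.0 in shNT replicate 3, with the next at 314, and ADM2 had 513, with the next at 599.8. Without that library, MBTPS1 had a log2 fold change of 0.19 (limma adjusted p = 0.0269), PCSK1N 0.39 (0.0503), TPST1 0.57 (0.00103) and ADM2 0.45 (0.00575).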

How the results depend on the processing

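In all, 4538 genes passed the threshold, 2344 higher and 2194 lower in shSRC1. Over the 20 alternatives the log2 fold changes of NCOA1 and CPE kept their direction, from -1.15 to -1.03 and from 1.84 to 1.95. Leaving out 1 library at a time, 3124 to 4776 genes passed, 1648 to 2525 higher and 1450 to 2251 lower, the 1450 without shSRC1 replicate 2. Of the list genes, 8 to 12 then passed, 4 to 7 higher and 2 to 5 lower. With the replicate block 6398 genes and 14 list genes passed, 9 of these higher and 5 lower; the added ones were 1 lower among the end modification genes and 1 higher among the regulators. Same-numbered libraries correlated in their deviations from the group means by 0.24, -0.01, 0.13 and 0.14, so the numbers were not taken as pairs, and not every library correlated best with its own number. Correction for transcript length and GC content with the replicate block gave 3940 higher genes and 2422 lower, 61.9% higher beside 51.7% without either. Among the 12 named list genes, no alternative reversed a direction, and PCSK5, TPST1, CCK, ADM2, EDN1 and IGF2 passed in every alternative that tested them. PCSK4, PCSK7, MBTPS1, VGF, PCSK1N and PTHLH passed in 18, 15, 12, 12, 13 and 17 of theirs. With no filter on low values, 3796 genes passed, 5 list genes were higher, and PCSK7, MBTPS1, VGF and PCSK1N did not. SCG2 had a value in 12 of the 20. PCSK1, PCSK2 and CHGB are limited by depth. With 5 neighbours on either side in place of 10, the median for CPE was -0.01, for SCG2 -0.19 and for CHGA 0.29.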

Other observations

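HADHAP1, a processed pseudogene annotated within the span of CPE on the opposite strand and outside its exons, was looked at after its values were seen. It had 60 reads in the shSRC1 libraries together and 13 in the shNT libraries, or 16.1, 15.7, 21.8 and 9.16 normalized reads in shSRC1 and 6.50, 4.44, 0 and 0.897 in shNT, so the groups did not overlap. Counting without strand would give it reads from either strand, and it can share reads with its parent gene HADHA.

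The complete cAMP response element TGACGTCA, which contains the TGACG core on both strands, was found in the 250-base windows of PCSK1 and CHGA and in none of the other 6 windows of the set, beside 1.77% of all 27305 windows. PCSK1 had 3 reads in shSRC1 and 1 in shNT, and CHGA 99 reads in shSRC1 and 99 in shNT.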
